A study of Drosophila melanogaster with 33 samples.

Results

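A set of 624 circRNAs had no read in any of the 6 libraries made from young flies and was read in the heads of old flies. The members were chosen from the deposited table by their values. Their back-splice junction was listed at 0 in all 6 day 0 libraries, their mean over the 10 samples of days 40 and 50 was at least 2 normalized reads, and the distance between their ends was at least 50 nucleotides. The table lists 7582 circRNAs, of which 7198 span at least 50 nucleotides and 3629 of these reach a late mean of 2. The other 3005 of the 3629 had a read in at least 1 day 0 library, and they serve here as the circRNAs to compare with. The filter of the study, as applied here, asks for a mean of at least 1 in every group or for 10 in any sample. It keeps 240 of the 624 members (38.5%) and 80.7% of the other 3005. Members are at 0 at day 0, so they can pass it by the 10 alone. Per the paper, most circRNAs detected before its filters were likely artifacts of splicing or sequencing, and which members are such was not tested. The absence at day 0 and the level at days 40 and 50 are the choice itself, and they are described without a test.

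The study followed circRNAs and linear RNA in heads of ageing Drosophila melanogaster of the CantonS strain, with 33 total RNA libraries in 12 groups of 2 or 3, females and males at days 0, 10, 20, 30, 40 and 50. All groups were wild type, received no treatment and were kept in a light and dark cycle. Flies mated before the sexes were separated, and day 0 flies were 2 to 3 days past eclosion. Each sample is a pool of heads, which hold brain, eye, fat body and muscle, so that in such bulk samples fewer cells of a type and less RNA per cell cannot be told apart. The values are read counts divided by a size factor for each library, called normalized reads here. Per the paper, mRNA counts take in all reads within the transcript. What is called linear RNA or linear reads here may thus include reads from inside circles of the same gene.

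A circRNA forms when the spliceosome joins the downstream end of an exon to an upstream exon start instead of the next exon, a reaction called back-splicing. The product has no free ends, so the exonucleases that degrade linear RNA cannot start on it. Total circRNA levels are known to rise with age in the fly head. Per the paper, earlier work found such a rise in neuronal tissue of worms and mice and in parts of the human brain. A circRNA is recognised by reads that cross its back-splice junction, which no linear transcript of the gene holds.

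Libraries held 28848182 to 94953552 linear reads (median 57226092) and 22475 to 249768 circRNA reads (median 134570), and both lowest values belong to female day 0 replicate 2. The day 0 libraries held the marker genes of the eye, with 1855780 to 1994550 normalized reads summed over 25 photoreceptor genes. A library listed 51 to 110 circRNAs with exactly 1 read and 337 to 633 with exactly 2, so that a listed 0 mostly stands for fewer than 2 reads. In the day 0 libraries 2 reads are worth 1.51 to 4.41 normalized reads and in the libraries of days 40 and 50 they are worth 1.48 to 2.33, so that no read at day 0 means below this level and not absent. Without female day 0 replicate 2 the same choice would have held 647 circRNAs, and without male day 0 replicate 1 it would have held 739. Replicates 1 and 2 of female day 50 held the same number of back-splice reads in all 4330 circRNAs that either listed, against at most 6.63% in any other pair, and they were averaged and counted as 1 sample. Members just inside the threshold were a circRNA of Nop17l with a late mean of 2.00003, of CG3961 with 2.0031 and of CG11836 with 2.00409. Just outside it were circRNAs of SCaMC (1.99977), dally (1.99774) and Sh (1.9954). The most abundant circRNAs with reads in exactly 1 day 0 library came from Gnmt (late mean 39.0), CG6282 (29.6) and btsz (28.7).

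The junctions that define the members are shown for those the results below turn on. Each line gives the last 15 bases of the circle in lower case and, in capitals, the first 15 bases that back-splicing joins to them, read 5′ to 3′ on the strand of the host from the Release 6 (dm6) genome.
ninaE chr3R:19887072-19887951, minus strand: tcatcattgctgtaaTAGCAGCCGCGCAAC
ninaE chr3R:19887072-19887948, minus strand: tcatcattgctgtaaCAGCCGCGCAACTGG
ninaE chr3R:19887072-19887560, minus strand: tcatcattgctgtaaCTCCATCTGGTCCAT
dysc chr3L:13886080-13889679, minus strand: gcccgtgatttgccgGCTTAGGCGTCTACA
mtd chr3R:5292640-5334701, minus strand: cgcgagtcctgggagCAGAGATCCATCGGC
unc79 chr3R:19237508-19238996, minus strand: cgcgctttggactggATCATGACGGCCACG
stops chr3R:31160958-31161329, minus strand: acgtcatttatgccgATACGGCGCCGCACC
sick chr2L:19857670-19910432, plus strand: caccatcgaagagcgATCTACACCGACTGG
Yp3 chrX:13759869-13760251, plus strand: agcggcgatttgatcACCACGTTGGCCAAA
Sxl chrX:7085158-7087659, minus strand: tgtggcctttgttcgTGGTGGGCGTGGATT

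The 3 circles of ninaE, the gene of the major rhodopsin of the eye, end on the same 15 bases and start at different ones. That shared end lies 4 bases into the intron beyond the annotated splice site, and 5 of the 7 ninaE members use it. The stretch chr3R:19887061-19887090 on the minus strand is shown because it holds both splice sites, with the annotated GT and the GT that the circles use in capitals.
ninaE: tggttcatcattgctGTaaGTggcgacgag
The start of the most abundant ninaE circle lies 8 bases inside the coding exon from its annotated start, and that of the second circle in the list lies 11 bases inside it. The dysc, unc79, stops and sick circles run between annotated splice sites at both ends.

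Most members were first listed at day 10 when a read in 1 sample was enough. When a read was asked for in at least 2 day 10 libraries, this no longer held for most members. In either sex together, 432 of the 624 (69.2%) had a read in at least 1 day 10 sample, 150 were first read at day 20 and 33 at day 30, while 9 waited until day 40 and 0 until day 50. Among females alone the counts from day 10 to day 50 were 347, 186, 57, 29 and 4, with 1 member that no female sample listed. Among males alone they were 271, 217, 100, 26 and 3, with 7 members that no male sample listed. A member read at day 10 was rarely read in all of that age. Only 13 members (2.08%) were listed in every day 10 sample, against 49.6% of the other 3005 circRNAs. By day 50, 357 (57.2%) were listed in every female sample, 456 (73.1%) in every male sample and 271 in all samples of both sexes.

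**Figure D1:**
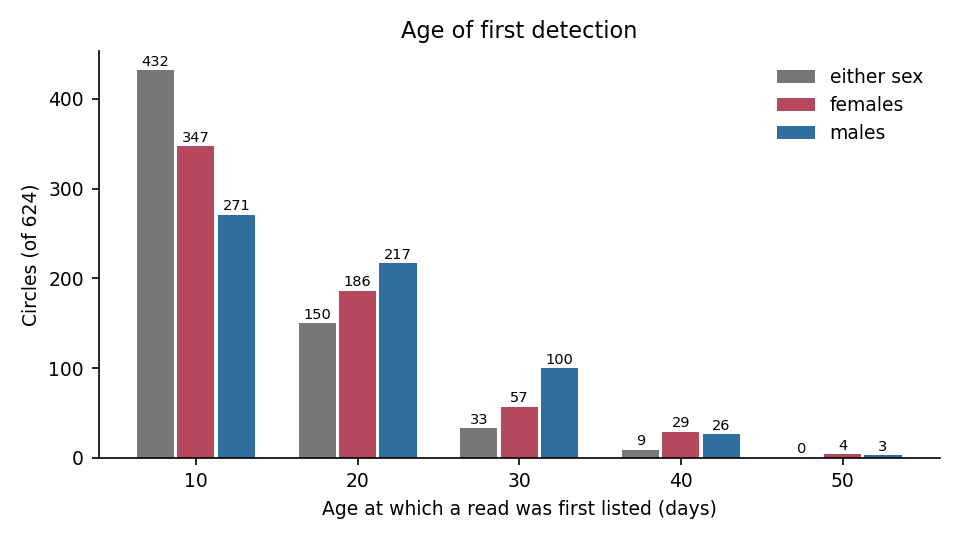
Bars give the number of the 624 circRNAs (vertical axis) whose back-splice junction was first listed at each age in days (horizontal axis), in either sex (grey), in females (red) and in males (blue). The bars for either sex fall from 432 at day 10 to 150 and then 33 at the next 2 ages.

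The number of members seen in 1 sample grew with age in both sexes. A female sample listed a mean of 185 members at day 10 (166 to 197), of 318 by day 20 (280 to 394), of 340 by day 30 (271 to 437), of 453 by day 40 (422 to 498) and of 461 by day 50 (450 to 472). Male samples listed a mean of 166 at day 10 (124 to 208), of 391 by day 30, of 455 by day 40 and of 525 by day 50 (513 to 537). The samples of day 50 did not overlap those of day 10 in either sex, while the range of females at day 30 reached into that of day 40. Depth moves such counts. When each library was drawn down to the 28870657 reads of the shallowest one, by the mean outcome of such a draw, and a member needed 2 reads, females saw 107, 176, 200, 300 and 333 members at days 10 to 50 and males 99.7, 194, 259, 334 and 378. Female day 20 replicate 1, which listed 394 members against 281 and 280 in its group, came to 176 at equal depth against 172 and 181. The normalized reads of all members summed to a mean of 730 in females at day 10 and 2870 at day 50, and to 652 and 3171 in males. As a share of the reads of the 3629 circRNAs, this was 0.983% and 1.74% in females and 0.968% and 1.80% in males. The last age is part of the choice, so the size of this growth is given as a description.

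**Figure D2:**
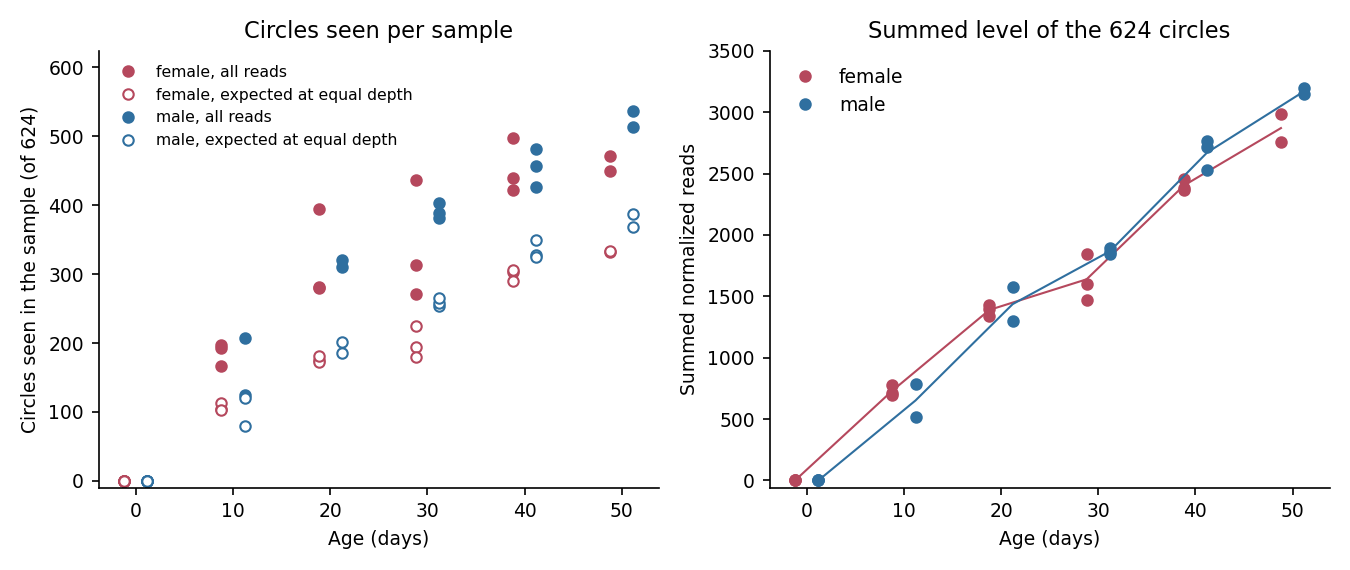
The left panel gives the number of the 624 circRNAs seen in each sample (vertical axis) by age in days (horizontal axis), with all reads and as computed for equal depth, and the right panel gives their summed normalized reads. Points are samples of females (red) and males (blue), and the day 0 points are at 0 because the choice sets them there.

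The most abundant member was the ninaE circle that ends at 19887951. It was listed at 0 in the 3 female and 2 male day 10 samples. In females it stood at 11.9, 11.5 and 14.6 normalized reads at day 20. Its later female values were 33.7, 22.9 and 23.7 (day 30), 47.9, 56.0 and 74.3 (day 40), and 59.7 and 75 (day 50). In males it stood at 18.0 and 23.6 (day 20), at 52.9, 39.7 and 70.0 (day 30), at 160, 191 and 173 (day 40), and at 254 and 261 (day 50). Each male group from day 20 on lay above the female group of its age with no overlap. From day 10 to day 30 the circle rose in both sexes, by 4.77 ± 0.41 on the log2(value + 1) scale in females (limma, adjusted p = 3.00e-13 over all 3629 circRNAs) and by 5.75 ± 0.46 in males (limma, adjusted p = 1.14e-14), each ± a standard error. Because the day 10 samples are at 0, these differences depend on the added 1. Relative to the linear reads of ninaE the rise was 4.78 in females and 5.55 in males. The linear RNA itself went from 412642 to 916004 normalized reads in females between day 0 and day 50, a log2 fold change of 1.15 ± 0.04 (limma, adjusted p = 5.19e-21).

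Among the other abundant members, those of mtd and Dad rose between days 10 and 30 in both sexes. The gene mtd encodes a TLDc domain protein related to the oxidation resistance proteins, and its circle read 2.96, 3.94 and 2.25 in females at day 10 and 23.9, 23.6 and 22.4 at day 30. In males it read 0 and 5.69 at day 10 and 34.3, 20.7 and 17.8 at day 30. The groups did not overlap in either sex, with differences of 2.61 in females and 3.23 in males on the log2(value + 1) scale. Dad, an inhibitory Smad of the Dpp pathway, had a circle (chr3R:17064716-17069428) with 1.97, 0 and 2.25 in females at day 10 and 25.0, 18.4 and 10.5 at day 30, and with 0 and 0, then 25.0, 12.9 and 13.8 in males. Here too every day 30 sample was above every day 10 sample, and the differences were 3.08 and 4.13. The linear RNA of mtd fell from day 0 to day 50 by 0.70 in females and by 0.71 in males on the log2 scale, and that of Dad moved by 0.21 and 0.34, which is under the 0.5 asked for.

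The circle of Prosap (chr2R:14086037-14092501), the fly Shank scaffold of the postsynaptic density, read 0, 0 and 6.75 in females at day 10 and 6.53, 9.59 and 6.57 at day 30, so that these groups overlapped. In males it read 0 and 1.90, then 14.8, 9.49 and 15.8, with no overlap. The difference was 2.09 in females (limma, adjusted p = 0.044), a call that 9 of 14 alternatives lost, and 3.05 in males. The circles of dysc and unc79 were the members with the highest means at day 10 and passed no test of the step to day 30. The gene dysc encodes a PDZ protein needed for the rhythmic output of the circadian clock, and unc79 encodes a subunit of the sodium leak channel complex. In females the dysc circle read 10.9, 3.94 and 14.6 at day 10, and it went on to 14.1, 22.1 and 17.1 by day 30 and to 42.8 and 38.1 by day 50. In males it read 6.52 and 9.48 at day 10, then 25.0, 21.6 and 10.8 (day 30) and 34.7 and 31.8 (day 50). The unc79 circle ran from 6.90 to 13.5 in females at day 10 and from 5.64 to 20.7 at day 50, and males read 13 and 21.8 at day 10 and 17.4 and 22.9 at day 50. For unc79 the groups of these ages overlapped in both sexes. The circle of stops, which encodes a SOCS box protein needed to end the light response in photoreceptors, read 3.95, 4.92 and 5.63 in females at day 10 and 23.7 and 15.2 at day 50, and 2.61 and 7.58, then 19.3 and 20.0 in males, with no overlap in either sex. It was named for its late mean, so its level at day 50 largely follows from the choice.

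**Figure D3:**
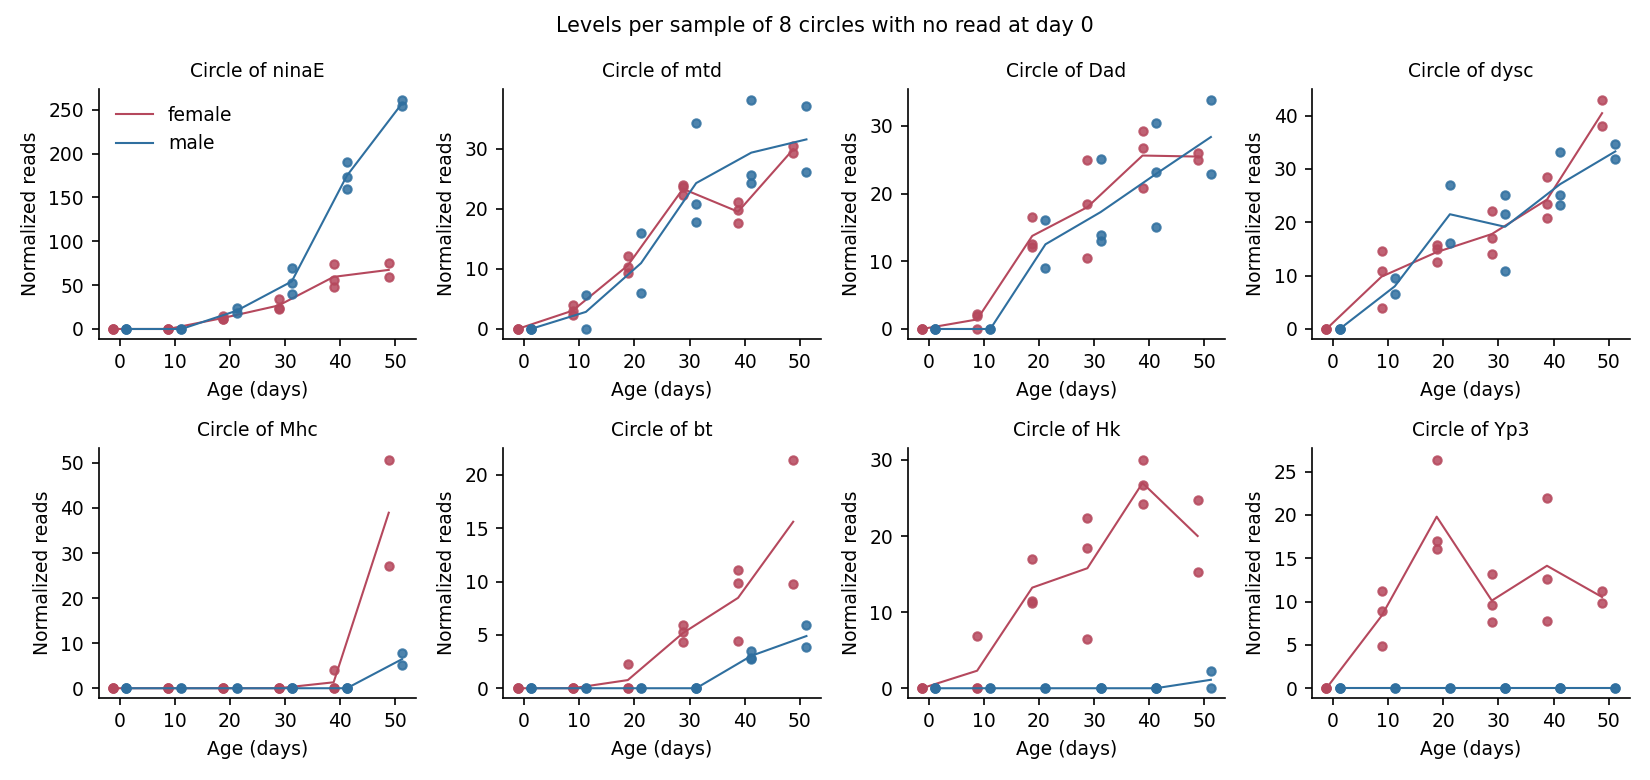
Each panel gives the normalized reads (vertical axis) of 1 circRNA by age in days (horizontal axis) in females (red) and males (blue), for the circles of ninaE, mtd, Dad, dysc, Mhc, bt, Hk and Yp3. Points are samples and lines join the group means, and the male points of Yp3 stay at 0 while those of ninaE reach 261.

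Over all members, 34 circRNAs rose and 1 fell between days 10 and 30 in females, where 11.8% of the 3629 circRNAs tested rose and 0.386% fell. In males 39 rose and 3 fell, with a background of 15.9% and 0.193%. As shares of the 624, the risen counts lie below the background in both sexes, and the median change was 0.56 against 0.60 for all circRNAs in females and 0.80 against 0.80 in males. An unadjusted p under 0.05 was reached by 94 higher and 2 lower members in females and by 107 and 5 in males. A call here is an adjusted p under 0.05 in limma with a change over 0.5 on the log2(value + 1) scale. A total of 64 members rose in at least 1 sex and 9 in both, the circles of ninaE, mtd, Dad, Prosap, mbl (chr2R:17275410-17371794), mAChR-A (chr2R:24380788-24381856), a muscarinic acetylcholine receptor, 1 circle with an ambiguous host on X and 2 with no host gene. The call of 1 of the latter, at chr3R:23655008-23655862, was lost in males in 8 of 13 alternatives. The lower ones were circles of Dscam2 in females and of CG8475, Ddr and side-VI in males. The side-VI circle read 0 in all female day 10 samples and 5.44, 2.95 and 2.63 at day 30, whereas males read 3.91 and 4.74 at day 10 and 0 in all day 30 samples. No member differed between the sexes in its change from day 10 to day 30 by limma, with 30 higher and 20 lower in males at an unadjusted p under 0.05. Of all circRNAs, 0.0% were called higher and 0.0276% lower in this comparison.

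The ratio of a circRNA to the linear reads of its host sets its change against that of the gene. These linear reads may include some from inside circles of the gene. It could be tested for 574 members, and it rose for 49 and fell for 3 in females, against 15.5% and 0.293% of all ratios. In males 59 rose and 3 fell, against 17.9% and 0.146%. The median change of the ratio was 0.69 in females (0.75 for all) and 0.93 in males (0.92 for all).

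A set of 192 members had no read in any day 10 sample, 42 of these had none at day 20 either, and 9 had none before day 40. The largest of the last kind was a circle of Mhc, the muscle myosin heavy chain (chr2L:16768584-16777439). In females it was at 0 up to day 40, where 1 sample read 3.95, and it read 50.7 and 27.2 at day 50. In males it was at 0 up to day 40 and read 7.72 and 5.18 at day 50. It was named for having no read at days 10 and 20, so reads in the oldest flies alone largely follow from the choice. Females stood above males at day 50. Most of the fall of the linear RNA of Mhc came before day 10. Its means at days 0, 10 and 50 were 647190, 128178 and 88038 normalized reads in females and 507395, 75636 and 79465 in males.

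The circle of bt, which encodes the giant titin-like muscle protein projectin (chr4:727461-742550), was at 0 in females at day 10, read 4.35, 5.90 and 5.26 at day 30 and 21.4 and 9.78 at day 50. In males it was at 0 up to day 30 and read 3.86 and 5.92 at day 50. Both muscle circles were named for having no read at day 10, so a higher level at day 50 largely follows from the choice. Linear bt had means of 244478, 70363 and 67361 normalized reads on days 0, 10 and 50 in females, and of 182653, 48105 and 65154 in males, so that its drop came by day 10. A long circle of sick, with 52763 bases between its ends, was at 0 at day 10 in both sexes and read 19.2 and 9.78 in females and 10.6 and 25.9 in males at day 50. The circle of hppy (chr2R:19211856-19218194), which encodes a MAP4K family kinase, was first read at day 30 in 1 female sample (2.18) and 1 male sample (1.85). It reached 3.38 and 3.26 in females and 9.64 and 4.44 in males at day 50. The sick and hppy circles were also named for having no read at early ages, so the same limit holds for them. Apart from Mhc, the members first read at day 40 came from Oamb, an octopamine receptor, bol (2 circles), CG45263, alpha-Cat, ninaE, vir-1 and 1 circle with no host gene, and their late means lay between 2.03 and 3.95.

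A minority of the members differed between the sexes. Averaged over days 10, 20 and 30, 5 members were higher and 12 lower in males than in females, against a background of 1.16% and 3.33% of all circRNAs. This balance depends on the scaling. Scaled to total linear reads, 10 members were higher and 12 lower in males, and over all circRNAs 42 higher and 121 lower became 123 higher and 95 lower. Without male day 20 replicate 1, 1 member was higher and 8 were lower in males. Averaged over days 40 and 50, 12 members were higher and 13 lower, against 0.882% and 1.79%, but the choice used the values of those ages and a member high in 1 sex can enter through that sex, so nothing is read from these counts. Of the 12 members higher in females over days 10 to 30, 8 lie on X, where 111 of all 624 members lie, and 5 had no male read at any age and so entered through females alone. The share on X among all circRNAs lower in males is not given here, so these counts are a description. Of the 5 higher in males 1 lies on X. All 7 members that no male sample listed are on X. They are 1 circle each of Yp3, Yp1 and Sxl, 2 of CR45601, an annotated antisense RNA, and 2 within Yp1 on its other strand. Those of Yp1, CR45601 and the other strand of Yp1 lie within chrX:10053898-10055423, so they are not independent.

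Yp3 encodes a yolk protein, made by the fat body and ovary of females. Its circle read 4.93, 8.86 and 11.3 in females at day 10 and 26.4, 16 and 17.0 at day 20. The female values were 7.62, 9.59 and 13.1 (day 30), 7.79, 22 and 12.6 (day 40) and 11.3 and 9.78 (day 50). Every male sample was at 0. The female mean was highest at day 20, and with no male read the circle was chosen through females alone, so its sex difference is given without a test. Sxl is the switch gene of female sex determination, and its circle was at 0 in all day 10 females, at 3.34, 7.69 and 3.16 at day 40 and at 13.5 and 3.26 at day 50. Its linear RNA moved by 0.02 in females and by -0.17 in males from day 0 to day 50, neither of which was called.

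The circle of Hk (chrX:10254003-10259488) was read in 1 male sample only. Hk encodes the beta subunit that binds the Shaker potassium channel. In females its circle read 6.90, 0 and 0 at day 10, and later 6.53, 18.4 and 22.4 (day 30), 26.7, 24.2 and 30.0 (day 40) and 24.8 and 15.2 (day 50). In males 1 day 50 sample read 2.22 and all others were at 0. The 2 sexes did not overlap from day 20 on. Over days 10 to 30, in samples that the choice did not use, males were lower by 2.90 ± 0.47 on the log2(value + 1) scale. With reads in 1 male sample only, the circle was chosen through females, so this difference is given without a test. Where males are at 0 this size depends on the added 1. The linear reads of Hk did not show such a gap, with 35275 in females and 35354 in males at day 0 and 19562 and 19569 at day 50. A circle of Sh, the Shaker channel itself (chrX:18059735-18060548), was also lower in males over days 10 to 30, by 2.02 ± 0.52 (limma, adjusted p = 0.0104).

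In the other direction, the male values of the ninaE circle ending at 19887951 lay above the female ones at days 40 and 50, as given above, and the difference of 0.55 over days 10 to 30 was not called (limma, adjusted p = 0.26). A second ninaE circle, ending at 19887560, was read in 1 female sample (3.95) and in all 5 male samples of days 40 and 50, at 2.85 to 6.95. The circle of Gnmt, the glycine N-methyltransferase that consumes S-adenosylmethionine, at chr3R:12674999-12675954 read 0 in females at day 10, 2.23, 0 and 0 by day 40 and 5.64 and 0 by day 50. In males it read 5.56, 6.90 and 8.88 (day 30), 17.4, 10.4 and 7.42 (day 40) and 14.5 and 15.5 (day 50). Males were higher without overlap from day 30 on, though the choice used the values of days 40 and 50. Over days 10 to 30 males were higher by 1.70 ± 0.49. The late mean came mostly from males, so the circle was chosen mainly through them and this difference is given without a test. A circle on a Y chromosome scaffold, a chromosome that females lack, was the member that no female sample listed.

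Several features that the choice did not use are described by their shares, beside those of the other 3005 circRNAs and with no test. Both ends lay at annotated splice sites for 428 members (68.6%), against 85.3% of the others. A single end did for 126 (20.2% against 9.95%) and neither end for 70 (11.2% against 4.76%). Over all 7582 listed circRNAs, of any span and level, these shares were 67.0%, 13.3% and 19.6%. The distance between the ends had a median of 2796 bases against 1926. A span of at least 10000 bases was found in 121 members (19.4%), against 12.5%, and in 14.4% of all 7582. A single exon made up 41 members (6.57% against 12.2%, and 8.49% of all 7582). The exonic length (846 against 845 bases), the number of exons (3 against 3) and the GC content (44.6% against 46.1%) had similar medians. The median of the intron upstream was 3302 bases against 3832 and that of the intron downstream 1721 against 2343. Members were low in level, with a median late mean of 3.19 against 9.71, a measure that the choice bears on. A share that differs from that of the other 3005 thus cannot be told apart from this difference in level. An end was shared with a circRNA that had day 0 reads by 379 members (60.7% against 71.0%, and 59.2% of all 7582). The most abundant such partner was the mbl circle at chr2R:17275410-17276063, with a late mean of 30736 normalized reads, followed by circles of dlg1 (2260) and Pkn (1494).

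**Figure D4:**
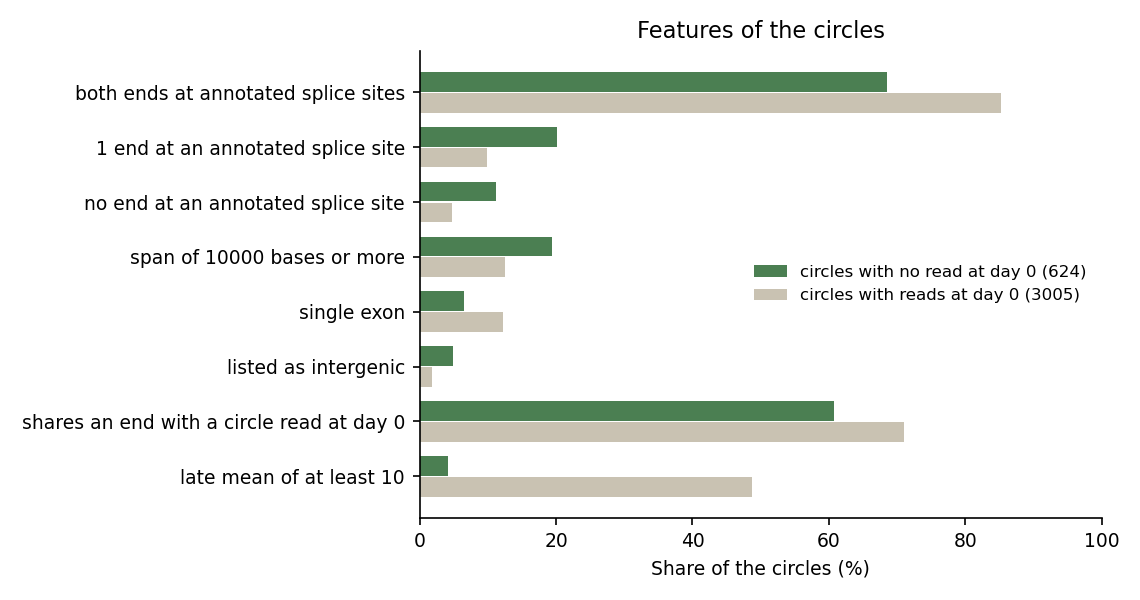
Bars give the share (horizontal axis, percent) of the 624 circRNAs with no read at day 0 (green) and of the 3005 with reads at day 0 (beige) that have each of 8 features. Both ends at annotated sites are less frequent among the former (68.6% against 85.3%), and so is a late mean of at least 10 (4.17% against 48.8%). Over all 7582 listed circRNAs these shares are 67.0% and 20.4%.

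Hosts were single genes for 576 members, and 283 of the 384 hosts had 1 member. The most came from mbl, the muscleblind splicing regulator, with 11 of its 59 circRNAs. Next were Rim, a scaffold of the presynaptic active zone, with 9 (late means 2.61 to 8.18), CG17108 with 8 of 115, and ninaE and ps with 7 each. The gene ps encodes pasilla, an RNA binding protein related to mammalian NOVA. The members of 1 host overlap in sequence and share ends, so they are not independent. All 8 circles of CG17108 lay within a coding exon, with neither end at an annotated site, and their ends carried direct repeats of 2 to 10 bases. The longest repeat is shown at both ends of the circle at chr2L:10693544-10693750, minus strand, with the repeat in capitals.
CG17108 chr2L:10693529-10693558: gaatcggCGGCGGAGGTggccattctggtg
CG17108 chr2L:10693736-10693765: tgatctcCGGCGGAGGTcattctggaggtg
A direct repeat of at least 6 bases at both ends was found in 24 members (3.85%) and in 3.93% of the others, so that such repeats were about as frequent in both. Of the 198 ends away from annotated sites in members with an annotated host, 77 lay in coding exons, 60 in introns, 30 in 3′ UTRs and 16 in 5′ UTRs, and 16 lay within 10 bases of an annotated site.

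The table called 31 members intergenic (4.97%, against 1.76% of the others and 8.53% of all 7582). By the strand of the splice signal that flanks them, 23 of the 31 lie inside a protein-coding gene of the other strand, 15 of them with both ends in its exons, while 4 overlap transposable elements alone and 4 neither. Among the other intergenic circRNAs the share inside a gene of the other strand was 81.1%. The most abundant is the circle at chr3R:23655008-23655862 inside CG31145, which read 0 in all day 10 samples of both sexes. In females it read 3.26, 6.64 and 9.20 at day 30 and 28.2 and 32.6 at day 50, and in males 2.78, 2.59 and 6.90 and then 33.8 and 30.3. Its day 50 samples were the highest in both sexes, with no overlap with any earlier age. It was named for its late mean and for having no read at day 10, so a high level at day 50 largely follows from the choice. Others lay inside ninaE, Yp1, pAbp, Idgf4, Hsc70-4, Tsf1 and apolpp.

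The linear RNA of the hosts was compared between day 0 and day 50, the ages that the choice used for the circles, so its counts are set beside the background and no more is read from them. Of 383 hosts tested, 39 rose and 141 fell in females, against 21.0% and 24.9% of all 12685 genes, and 35 rose and 107 fell in males, against 19.9% and 22.5%. The median log2 fold change of the hosts was -0.29 in females and -0.22 in males, that of all genes -0.04 and -0.03, and that of hosts of the other circRNAs -0.39 and -0.32. These counts depend on the scaling. Scaled to total linear reads, which moves the median of all genes by 0.12 in females and 0.25 in males, 50 hosts rose and 101 fell in females, and 69 rose and 47 fell in males. In both sexes 30 hosts rose (57 members) and 98 fell (135 members), and 190 hosts with 279 members were called in neither. Between days 10 and 30, 15 hosts rose and 26 fell in females, against 8.91% and 5.8%, and 7 rose and 9 fell in males, against 3.95% and 4.42%.

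**Figure D5:**
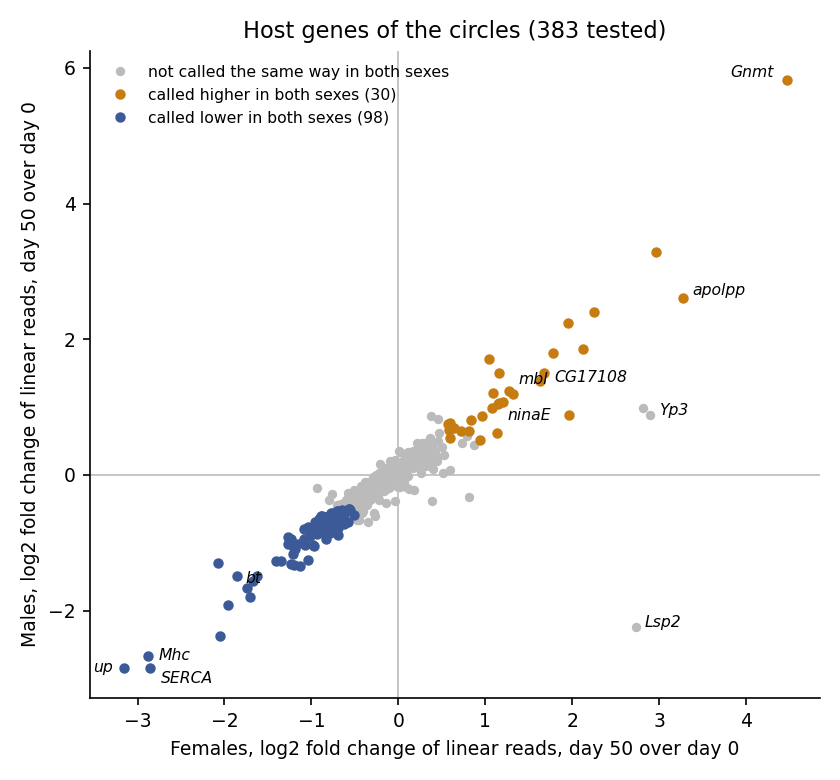
Each point is 1 of the 383 host genes tested, with its log2 fold change of linear reads from day 0 to day 50 in females (horizontal axis) and males (vertical axis). The 30 hosts higher in both sexes are orange and the 98 lower in both are blue, with Gnmt at the upper right and Mhc, SERCA and up at the lower left.

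The change of the linear RNA from day 0 to day 50 differed between the sexes for 9 hosts by limma, in 4 with a higher and in 5 with a lower change in males, against 2.55% and 3.45% of all genes. The hosts that rose most were Gnmt, by 4.46 ± 0.24 in females and 5.82 ± 0.27 in males, apolpp, the precursor of the lipid carrier apolipophorin (3.27 and 2.60), and Ir41a, an ionotropic receptor of olfactory neurons (2.96 and 3.29). Their circles were of low level, with late means of 7.31, 2.95 and at most 7.69. The hosts that fell most were up, which encodes troponin T (-3.16 and -2.85), Mhc (-2.88 and -2.67) and SERCA, the calcium pump of the sarcoplasmic reticulum (-2.86 and -2.85). The up circle read 0 to 1.97 in females at day 10 and 0 and 2.17 at day 50, and the SERCA circle read 1.97 to 2.25 in females at day 10 and 0 in both samples at day 50, so that both stayed near the value of 2 reads.

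Gene lists of the cell types and functions in the head held few of the hosts. Muscle genes hosted 5 members and 15 of the other 3005 circRNAs, neuronal genes 30 and 112, and photoreceptor genes 11 and 24. For fat body genes these counts were 4 and 5, for ribosomal protein genes 1 and 3, and for factors acting on circRNAs 11 and 23. They are given with no test. Their changes from day 0 to day 50 are to be read beside the 21.0% of all genes that rose and the 24.9% that fell in females, and the 19.9% and 22.5% in males. Of 20 muscle genes tested, 18 fell and 1 rose in females and 17 fell and 1 rose in males, with a median change of -2.32 in females, and 3 of them (Mhc, bt and up) host 5 members. The reads of the muscle list summed to 1730950 to 2405350 in the day 0 libraries, to 397764 to 647300 in those of day 10 and to 557810 to 578422 in those of day 50, so that the drop came by day 10, and how far this bears on the muscle circles was not tested. Of 22 neuronal and synaptic genes, 17 fell and 0 rose in females (median -0.72) and 12 fell and 0 rose in males by limma, and 11 of them host 30 members. Scaled to total linear reads, 13 fell and 0 rose in females and 8 fell and 1 rose in males. Among these hosts brp, the active zone protein Bruchpilot (5 members), fell by 0.87 in females and by 0.70 in males, and para, the voltage-gated sodium channel (4 members), fell by 0.73 and by 0.57. dlg1, the synaptic scaffold Discs large (3 members), moved by 0.34 and 0.25, which is under the 0.5 asked for.

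Of 25 photoreceptor genes, 5 rose and 12 fell in females and 4 rose and 12 fell in males, and with the other scaling 7 rose and 11 fell in females and 8 rose and 7 fell in males. Of the hosts among them ninaE and Arr2, an arrestin that binds rhodopsin, rose in both sexes (Arr2 by 0.84 and 0.82), Calx, the sodium and calcium exchanger, fell by 0.63 in females and by 0.56 in males, and Arr1 and rdgB were not called. Of 14 fat body genes, 9 rose and 2 fell in females and 4 rose and 5 fell in males, which the other scaling left at 9 and 2 and turned to 7 and 4. Their hosts are apolpp, Yp1, Yp3 and Lsp2, with 1 member each. Of 23 ribosomal protein genes, 22 rose in females and 11 in males (23 and 20 with the other scaling), and RpL7A hosts 1 member. No member came from the lists of glial, hemocyte or cuticle genes, and of the other 3005 circRNAs only 2, 2 and 0 did. Of 16 factors known to act on circRNAs, 2 rose and 2 fell in each sex, with medians of 0.06 in females and 0.10 in males. With the other scaling, 3 rose and 2 fell in females and 5 rose and 2 fell in males. The list holds mbl, which hosts 11 members and whose linear reads rose by 1.28 ± 0.14 in females and 1.24 ± 0.16 in males. Its circle at chr2R:17275410-17276063 went from at most 5859 normalized reads at day 0 to a late mean of 30736. Reads from inside it may be counted here, so the rise cannot be assigned to linear RNA.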

How the data were processed

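Per the deposited table, the authors aligned reads with STAR to the dm6 genome, counted linear reads with featureCounts and back-splice reads with find_circ2, and divided each library by a DESeq2 size factor. Versions are not given in the sources used here, nor whether the counting of linear reads used strand, so a gene and its antisense partner may share reads. The authors left out 2 male samples. The deposited values are thus a signal, not counts. Whole reads were recovered from them within 0.01 of a read in all libraries. In male day 20 replicate 1 a read is worth 0.999, close to a whole number already. The count test omits this library, which was flagged as GC-rich, and an alternative leaves it out of the limma fits. Its GC content is not given here.

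The members, lists and tests were chosen with earlier results of these data known. Values were tested as log2(value + 1) with limma 3.58.1 (R 4.3.3, statmod 1.5.0, trend and robust settings) on 12 group means, over 3629 circRNAs, 3413 ratios of circRNA to host reads and 12685 genes with a mean of at least 10, with Benjamini-Hochberg adjustment. A call needed an adjusted p under 0.05 and a change over 0.5. Replicates are separate pools by their labels, and nothing says that they came from separate cultures, so p-values measure the spread between these samples. Splice sites came from the BDGP6.54 annotation and positions are 1-based. The models were tested on simulated data, with changes placed only in circRNAs and genes with a mean of at least 10. Only 26 members reach a late mean of 10. That test thus does not tell how the fit behaves at the level of most members. Alternatives were edgeR 4.0.16 on the recovered reads, other pseudocounts and filters, another scaling, a replicate block and leaving out each replicate.

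Named were the members with the 10 highest late means and the 5 highest day 10 means, the 5 highest with no read at day 10 and at days 10 and 20, the 5 largest sex differences, the members of the 5 hosts that changed most and of the 5 with the most members, circles beside the threshold, the 3 most abundant partners, and hosts in the lists. Members called in both sexes, those that fell, those first read at day 40, those of 1 sex and the intergenic circles named were added after their values were seen. Tables were written with Python 3.11.15, numpy 2.4.6, pandas 2.3.3, scipy 1.17.1 and matplotlib 3.10.9.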

Additional observations from a re-analysis of the deposited data

Results flagged for a closer look

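The change of the linear host RNA from day 0 to day 50 was compared between the sexes, a comparison added after the data had been seen, and 9 of 383 hosts passed it in limma, 5 with a lower and 4 with a higher change in males (background 3.45% and 2.55% of 12685 genes). Differences are the male minus the female log2 fold change, ± a standard error. The difference was -4.97 ± 0.68 for Lsp2, a storage protein of the fat body that rose by 2.73 in females and fell by 2.24 in males, and -2.01 ± 0.55 for Yp3. It was -1.13 ± 0.11 for ATPCL, the ATP citrate lyase, -0.51 ± 0.13 for ACC, the acetyl-CoA carboxylase, both enzymes of fatty acid synthesis, and -1.08 ± 0.10 for CG6067. ATPCL changed by 0.81 in females and by -0.32 in males, and ACC rose by 1.14 in females and by 0.62 in males. Gnmt rose more in males, with a difference of 1.36 ± 0.37, and so did CG11836, with 0.68 ± 0.20. Rgk1 (0.79 ± 0.06) and FoxP (0.74 ± 0.15) differed in the same direction. Rgk1 fell by 2.08 in females and by 1.29 in males, and FoxP fell by 0.94 in females and changed by -0.20 in males, which was not called. Each of these genes hosts 1 member, except Rgk1 with 2, and no member differed between the sexes in its own change from day 10 to day 30.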

How the results depend on the processing

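No call of a circRNA or host named by rank changed sign under any alternative. The other circles and hosts named in the text, among them the circles that fell, are not covered by this check. Scaling to total linear reads turned the balance of male host calls and their median (-0.22 to 0.04). Counts of calls and of detection by day 10 were taken again under each alternative. Of these 297 values, 231 stayed within 1.5 times of the main count. Calls of members and hosts named by rank were checked likewise. Of 1395 pairs of a call and an alternative, 1278 held. For circRNAs higher and lower from day 10 to day 30 (34 and 1 in females, 39 and 3 in males), edgeR on recovered reads gave 22 and 0, and 18 and 1. No filter gave 19 and 0, and 21 and 1, and the filter of the study left 0 lower in females and 1 in males. In the sex difference of the earlier span (5 and 12), edgeR gave 2 and 6, scaling to total linear reads gave 10 higher, no filter 3 higher and leaving out male day 20 replicate 1 gave 1 higher. In that of the later span (12 and 13, ages the choice used), edgeR gave 3 and 7, and female day 50 replicates 1 and 2 as separate samples gave 19 and 21. A pseudocount of 4 gave 85 and 6 ratios in females. Scaling gave 69 and 47 hosts in males from day 0 to day 50 and 91 lower in females and 4 lower in males from day 10 to day 30. A first detection by day 10 in at least 2 libraries held for 264 members. The replicate numbers share only a number (correlations of deviations -0.26 to 0.056), and the replicate block left 1 circRNA lower in males from day 10 to day 30, 1 higher and 5 lower in the earlier sex difference and 5 and 7 in the later one.

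Leaving out 1 replicate each gave 17 to 30 circRNAs higher and 0 to 1 lower in females, and 6 to 31 higher and 0 to 1 lower in males. Ratios gave 32 to 44 and 2 to 3 in females, and 12 to 49 and 0 to 2 in males. The earlier sex difference gave 1 to 8 higher and 6 to 12 lower, and the later one 7 to 14 and 7 to 14. Hosts gave 38 to 40 and 133 to 143 in females and 32 to 36 and 104 to 107 in males from day 0 to day 50, and 13 to 15 and 24 to 33, and 6 to 7 and 8 to 11, from day 10 to day 30. Detection by day 10 ranged from 382 to 409. Single libraries decided some counts. Higher circRNAs came to 21 without female day 10 replicate 3, 17 and 19 without female day 30 replicate 2 or 3, 6 and 21 without male day 10 replicate 1 or 3 and 22 without male day 30 replicate 2. Ratios came to 32 without female day 10 replicate 3 or female day 30 replicate 2, 12 and 34 without male day 10 replicate 1 or 3 and 37 without male day 30 replicate 3. In the earlier sex difference 6 were lower without male day 10 replicate 1, and 8, 2 and 3 higher without female day 30 replicate 2, male day 10 replicate 3 and male day 30 replicate 1 or 2. In the later one 7 were lower without female day 50 replicate 1, 7 higher without female day 50 replicate 3 or male day 50 replicate 1, and 7 each way without male day 50 replicate 2.

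At late means near 3 normalized reads, a few reads decide whether a circRNA is listed, and no read at day 0 cannot be told from a level under 2 reads.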
